A study of Mus musculus with 2 samples.

Results

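ON bipolar cells of the retina answer to light through a receptor complex at the tips of their dendrites, and the 10 genes described here encode its receptor, its channel, its leucine-rich-repeat organisers and the proteins that switch its G protein off. In darkness photoreceptors release glutamate onto the metabotropic receptor mGluR6, which through the G protein Go keeps the cation channel TRPM1 closed. When light stops the release, RGS proteins bound to the G protein subunit Gβ5 speed the shutdown of Go, the channel opens and the cell depolarises. Loss of several of these proteins causes a form of congenital stationary night blindness in people. The members were chosen by symbol and are Grm6, Trpm1, Gpr179, Nyx, Lrit1, Lrit2, Lrit3, Rgs7, Rgs11 and Gnb5. All 10 had a row among the 32813 gene symbols, and 10 were above 0 in at least 1 library.

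The series measured RNA in 2 libraries of mouse cells labelled as type 5 retinal bipolar cells, a class of ON cone bipolar cells. The cells were sorted by fluorescence from dissociated retinas of the Htr3a-GFP line, whose reporter marks cells by the gene for serotonin receptor subunit 3A, and the libraries are described as biological replicates. They form a single group, so each value is a level in the sorted cells and not an enrichment over other retinal cells, and no treatment, genotype or time separates them. The sources used here do not give strain, age, sex or any pooling of animals. Values are in TPM, a share of all transcripts after division by transcript length, scaled to a fixed total. This unit does not hold the number of reads, so sequencing depth is unknown and the error of a value is the spread between the libraries.

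Markers of the label were present, beside those of other cells. Of 7 type 5 markers 5 were called above 1 TPM, against 55.5% of all genes tested, a share close to those of the rod photoreceptor and Muller glia markers. The median of the 7 was 90.9 TPM in replicate 1 and 110 TPM in replicate 2. Called among them were Htr3a, on which the sort rests, at 90.9 TPM in replicate 1 and 88.8 TPM in replicate 2, and Kcng4, a potassium channel subunit, at 229 and 326 TPM. Those not called, Chrm2 and Slitrk5, stayed between 0.08 and 2.15 TPM. Of 6 markers of bipolar cells in general, all 6 were called above 1 TPM. These markers summed to 5352 TPM in replicate 1 and 4850 TPM in replicate 2. Rod bipolar cells use the same dendritic complex. Of 5 rod bipolar markers 1 was called above 1 TPM, namely Rpa1, and their summed level was 42.6 TPM in replicate 1 and 69.0 TPM in replicate 2. Their usual stain, Prkca, had 4.1 and 7.3 TPM, and Sebox was listed at 0 in replicate 1. Of 15 rod photoreceptor markers 11 were called above 1 TPM, with medians of 14.3 and 34.9 TPM and sums of 1759 and 1879 TPM, led by Gngt1, Rom1 and Sag, and none of the 15 was at 0. Cone markers summed to 189 and 43.7 TPM with 2 of 8 called above 1 TPM, and Muller glia markers to 188 and 403 TPM with 6 of 8 called. Amacrine markers summed to 60.4 and 93.7 TPM with 2 of 8 called, Chat and Calb2 being listed at 0 in both libraries. Among the 8 amacrine markers, 5 were higher in replicate 2, such as Tfap2b at 0.33 and 20.4 TPM and Pax6 at 22.3 and 46.5 TPM. Slc6a9 went the other way, at 36.6 and 3.12 TPM. OFF bipolar markers summed to 10.2 and 13.6 TPM over 7 genes, the highest being Cdh8 at 5.69 TPM in replicate 2. The mitochondrial genome made up 17.3% of all TPM in replicate 1 and 24.6% in replicate 2, a share that is not left for the other genes.

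The upstream bases of the members show which sequence lies before each start. RefSeq windows on GRCm38.p6 were found for 9 of the 10 members, and the 250 bases before the most upstream start were searched on both strands. The letters TAATCC are the core recognised by the homeodomain proteins OTX2 and CRX. They occurred before the RefSeq starts of Trpm1, Lrit1, Lrit2 and Gnb5, thus in 4 of 9 members, and in 6.37% of the 27025 windows of the same length. The 4 include Lrit2, whose match lies past the start that GENCODE M21 gives for that gene. Otx2 itself, the homeobox gene of photoreceptors and bipolar cells, stood at 843 and 875 TPM. Grm6, the receptor gene, had no match and is shown for comparison. Capitals mark TAATCC or its reverse complement GGATTA, and the strand and position of each window are chr11:50850435-50850684 plus for Grm6, chr7:64153585-64153834 plus for Trpm1, chr14:37054580-37054829 plus for Lrit1 and chr9:75306038-75306287 plus for Gnb5.
Grm6: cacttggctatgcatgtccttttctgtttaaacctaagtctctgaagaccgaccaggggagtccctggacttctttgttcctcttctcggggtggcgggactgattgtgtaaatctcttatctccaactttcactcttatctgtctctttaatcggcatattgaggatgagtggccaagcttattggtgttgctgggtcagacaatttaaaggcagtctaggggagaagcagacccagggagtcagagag
Trpm1: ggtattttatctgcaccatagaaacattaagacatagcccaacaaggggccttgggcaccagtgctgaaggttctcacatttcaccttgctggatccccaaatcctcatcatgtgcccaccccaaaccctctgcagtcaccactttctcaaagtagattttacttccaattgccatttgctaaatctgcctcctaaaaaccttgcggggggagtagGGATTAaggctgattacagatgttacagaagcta
Lrit1: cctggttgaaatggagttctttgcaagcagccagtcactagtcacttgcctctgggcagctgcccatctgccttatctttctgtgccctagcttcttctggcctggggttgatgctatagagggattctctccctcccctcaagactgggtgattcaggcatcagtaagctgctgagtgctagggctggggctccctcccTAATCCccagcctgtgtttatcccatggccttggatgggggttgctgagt
Gnb5: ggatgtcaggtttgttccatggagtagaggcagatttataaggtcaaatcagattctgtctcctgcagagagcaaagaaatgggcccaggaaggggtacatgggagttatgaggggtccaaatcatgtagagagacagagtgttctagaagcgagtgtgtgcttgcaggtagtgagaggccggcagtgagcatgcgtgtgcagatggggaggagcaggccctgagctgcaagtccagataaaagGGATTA

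In these windows the match began 34 bases before the RefSeq start of Trpm1, 50 bases before that of Lrit1 and 6 bases before that of Gnb5. The match of Lrit2 began 37 bases before its RefSeq start, but GENCODE M21 starts the gene further upstream, at 37067929. The match thus lies within the 100 bases of that window that are in annotated exons, so the window is not shown. A match of 6 letters is a description of these windows and not a binding site. A second homeodomain core, TAATTA, was in 0 of the 9 member windows and in 4.91% of all windows. The E-box form CAGNTG, a kind of site used by basic helix-loop-helix factors, was in 4 of 9 member windows and in 44.5% of all. The looser form CANNTG, which includes every CAGNTG, was in 7 of 9 and in 66.1% of all. The members without a TAATCC match include Grm6 and Gpr179, so the match does not sort the members by level. Some windows without a match do not adjoin the GENCODE M21 start. That of Nyx ends at 13461089, while GENCODE M21 starts Nyx at 13466110. On the minus strand, that of Gpr179 lies from 97352357 to 97352606, while GENCODE M21 starts Gpr179 at 97352077. The windows of Lrit3 and Rgs7 also lie upstream of that start with a gap.

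The 9 members other than Lrit3 were abundant in both libraries, and the receptor and the channel stood highest. With limma across all 19968 genes above 0, 9 of 10 members were called above 1 TPM, against 55.5% of all genes tested, and 9 of 10 above 10 TPM, against 32.4% (one-sided, Benjamini-Hochberg adjusted p under 0.05). By their values alone, 9 members reached 1 TPM in both libraries, against 67.6% of all genes above 0, and 9 reached 10 TPM in both, against 41.3%. The calls rest on a spread that limma took from the abundance trend and not from each gene's own libraries. The median over the members of the mean log2(TPM + 1) was 6.996, against 3.22 for all genes above 0. Together the members took 0.248% of all TPM in replicate 1 and 0.238% in replicate 2. In a bulk sample, fewer cells that express a gene and less RNA per cell cannot be told apart.

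**Figure D1:**
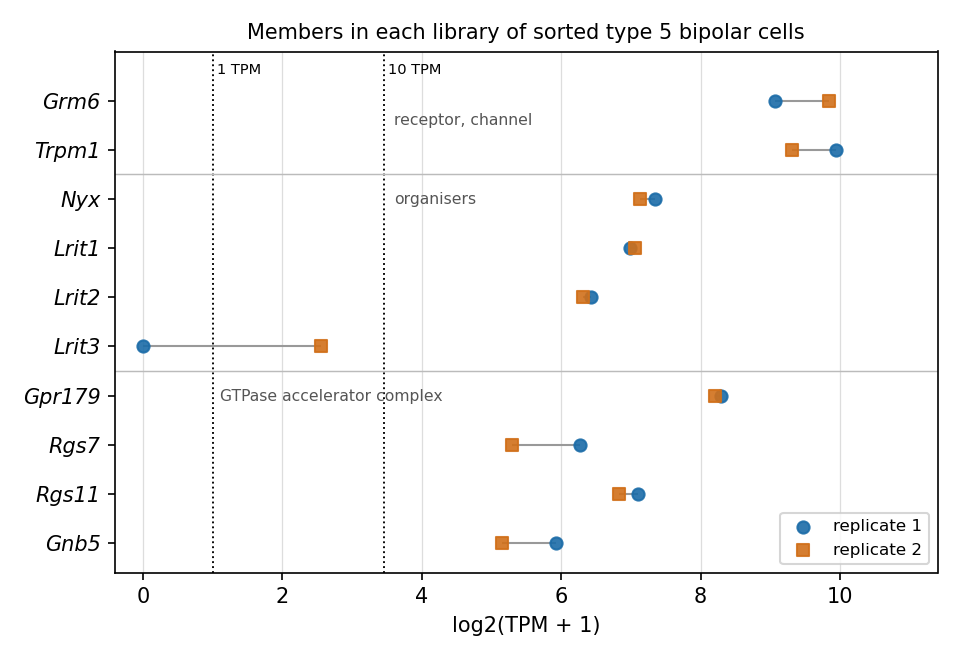
Level of each member on the log2(TPM + 1) axis in replicate 1 (circles) and replicate 2 (squares), with a line joining both and dotted lines at 1 and 10 TPM. Every gene but Lrit3 lies right of the 10 TPM line in both libraries, and Grm6 and Trpm1 exchange places between them.

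Grm6 encodes mGluR6, the glutamate receptor that starts the ON response. It had 538 TPM in replicate 1 and 914 TPM in replicate 2, a mean of 726 ± 265 TPM (SD, n = 2), and ranked 173 and 65 among all symbols. Trpm1 encodes the cation channel that the receptor controls. It had 988 TPM in replicate 1 and 636 TPM in replicate 2, a mean of 812 ± 249 TPM (SD, n = 2), with ranks of 72 and 139. Replicate 1 was thus the lower library for the receptor and the higher one for the channel, and the ranges of both genes overlap. The ratio of Grm6 to Trpm1 was 0.545 in replicate 1 and 1.44 in replicate 2. It lies on either side of 1, so these libraries give no order between receptor and channel. Their summed level was 1526 and 1550 TPM.

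The genome around both genes bears on what their values hold. On chromosome 11, plus strand, Grm6 spans 50850685 to 50866208 (GRCm38, GENCODE M21). The antisense gene Gm12660 shares 599 exonic bases with it on the other strand. Gm12660 was listed at 41.9 TPM in replicate 1 and 28.2 TPM in replicate 2. Without strand, which the sources used here do not state, reads on these shared bases cannot be assigned within the pair. The exons of Grm6 cover 5421 bases in all. Grm6 exceeded Gm12660 12.9-fold and 32.4-fold. Trpm1 spans 64153835 to 64269775 on chromosome 7, plus strand, and an intron of it holds the microRNA gene Mir211, from 64205806 to 64205911. The Mir211 row stood at 16.6 TPM in replicate 1 and 73.2 TPM in replicate 2. That row covers the hairpin locus and not a mature microRNA, and reads of unspliced Trpm1 RNA would fall on the same bases. The mature 5′ strand of its microRNA is given with its seed, bases 2 to 8, in capitals.
mmu-miR-211-5p: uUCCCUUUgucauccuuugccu

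Leucine-rich-repeat proteins organise the complex across the synapse. Of the 4 members listed as organisers, 3 were called above 10 TPM, against 32.4% of all genes tested. Nyx encodes nyctalopin, which sits on the dendritic tips and is needed to place TRPM1 there. It had 162 TPM in replicate 1 and 139 TPM in replicate 2, a mean of 151 ± 16.3 TPM (SD, n = 2). Lrit1 encodes a leucine-rich-repeat protein of photoreceptor synapses. It had 126 and 132 TPM in replicates 1 and 2, a mean of 129 ± 4.27 TPM (SD, n = 2). The rod markers summed to 1759 and 1879 TPM and the cone markers to 189 and 43.7 TPM. The part of photoreceptor RNA in the Lrit1 value was not tested. Lrit2, a family member that lies next to Lrit1 on chromosome 14, had 85.4 and 78.2 TPM, a mean of 81.8 ± 5.11 TPM (SD, n = 2). The ratio of Lrit1 to Lrit2 was 1.47 in replicate 1 and 1.69 in replicate 2, so Lrit1 was the higher gene of the pair in both. Lrit1 spans 37054830 to 37064946 and Lrit2 37067929 to 37073743, both on the plus strand with no shared bases.

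Lrit3 was the member that stood apart. It encodes a protein that is needed to bring nyctalopin and TRPM1 to the dendritic tips, and work in mice has placed it in photoreceptors, from which it acts across the synapse. The gene spans 129787881 to 129804030 on chromosome 3, minus strand. Replicate 1 listed it at 0 and replicate 2 at 4.87 TPM. It was not called above 1 TPM, which does not show that it lay under that line. A 0 in a table without counts can be a failed estimate, so no mean or fold is given for this gene. Both of its values lay under those of every other member, and it enters the median level of the members as their lowest value. The rod marker sum was 1759 TPM in the library with Lrit3 at 0 and 1879 TPM in the other, and 12 of 15 rod markers were higher in replicate 2. Cone markers went the other way, with sums of 189 and 43.7 TPM and 1 of 8 higher in replicate 2. Muller glia markers summed to 188 and 403 TPM, with 7 of 8 higher in replicate 2. The part of RNA from any of these cells in the Lrit3 value was not tested.

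The genes of the GTPase accelerator complex were all called above 10 TPM, against 32.4% of all genes tested, and stood in unequal amounts. Gpr179 encodes an orphan receptor that anchors the RGS proteins at the dendritic tips. It had 312 TPM in replicate 1 and 294 TPM in replicate 2, a mean of 303 ± 12.8 TPM (SD, n = 2). Rgs11, one of the catalytic subunits, had 137 and 113 TPM, a mean of 125 ± 16.8 TPM (SD, n = 2). Rgs7, which acts beside it, had 76.4 and 38.4 TPM, a mean of 57.4 ± 26.9 TPM (SD, n = 2). Rgs11 was above Rgs7 in both libraries, with ratios of 1.79 in replicate 1 and 2.95 in replicate 2. Gnb5 encodes Gβ5, without which R7 RGS proteins are unstable. It was the lowest of the complex at 59.5 TPM in replicate 1 and 34.5 TPM in replicate 2, a mean of 47.0 ± 17.7 TPM (SD, n = 2).

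Within a library, ratios do not depend on how much of the total other RNAs took. Gnb5 reached 0.279 of the sum of Rgs7 and Rgs11 in replicate 1 and 0.228 in replicate 2. The RGS pair therefore exceeded the RNA of its obligate partner 3.58-fold and 4.39-fold. Gpr179 exceeded the RGS pair 1.46-fold in replicate 1 and 1.94-fold in replicate 2. Nyx stood at 0.302 of Grm6 in replicate 1 and 0.152 in replicate 2. The ratio of Gnb5 to the RGS pair moved 1.23-fold between the libraries and that of Grm6 to Trpm1 2.64-fold. These are ratios of RNA per transcript length and say nothing of protein. A gene value sums over transcripts, so the long Gβ5 form that photoreceptors pair with Rgs9 is counted in the same row.

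**Figure D2:**
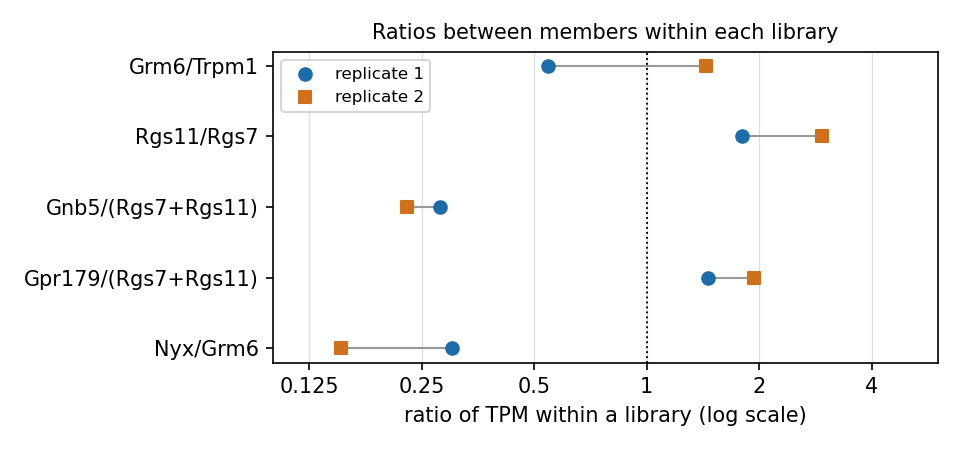
Ratio of TPM between members within replicate 1 (circles) and replicate 2 (squares) on a log axis, with a dotted line at 1. The ratio of Grm6 to Trpm1 crosses 1, at 0.545 and 1.44, while the other 4 ratios stay on 1 side of it in both libraries.

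Ordered by mean TPM, the members other than Lrit3, which lay below them, ran Trpm1, Grm6, Gpr179, Nyx, Lrit1, Rgs11, Lrit2, Rgs7 and Gnb5. Neighbours whose ranges over the libraries overlap are Trpm1 with Grm6, Lrit1 with Rgs11 and Rgs7 with Gnb5. Within a library, Grm6 and Trpm1 changed places, as did Lrit1 and Rgs11, with ratios of Lrit1 to Rgs11 of 0.919 and 1.16. Rgs7 was above Gnb5 in both, by 1.28-fold and 1.11-fold. The lower library of Grm6, at 538 TPM, was above both libraries of Gpr179, and the lower one of Gpr179, at 294 TPM, above both of Nyx. Rgs11 at its lowest, 113 TPM, was above the highest value of Lrit2, 85.4 TPM. The gaps of Nyx over Lrit1 and of Lrit2 over Rgs7 were narrow. Nyx at its lowest, 139 TPM, passed the highest value of Lrit1, 132 TPM, by little, and Lrit2 at its lowest, 78.2 TPM, that of Rgs7, 76.4 TPM. With 2 values against 2, an exact permutation test cannot go below a two-sided p of 0.333, so no difference between single members was tested.

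By a limit of 2-fold, the libraries matched for these genes about as closely as for others of like level. All 9 members with a mean of at least 10 TPM lay within 2-fold between the libraries on the log2(TPM + 1) scale, as did 75.2% of all such genes. By level, the share among all genes was 90.8% at 100 to 1000 TPM, where 6 of the 6 members lay, and 72.1% at 10 to 100 TPM, where 3 of the 3 did. Replicate 2 was the lower library for 7 of these 9 members and for 60% of all such genes, a count that was 5 of 9 when TPM was rescaled without the mitochondrial genome or centred on genes of at least 10 TPM. The median log2 difference of the 9, replicate 2 minus replicate 1, was -0.22, against -0.20 for all genes at 10 TPM or more. Grm6 differed the other way, by 0.76, while Rgs7 at -0.97, Gnb5 at -0.77 and Trpm1 at -0.63 lay below that median. Regardless of sign, Grm6 and Trpm1 differed by more than the median of all genes at 100 to 1000 TPM, 0.37. Rgs7 and Gnb5 differed by more than that at 10 to 100 TPM, 0.62. The other members at 10 TPM or more differed by less than the median of their level. Rgs7 and Gnb5, whose proteins bind each other, were both lower in replicate 2, but 2 libraries give no pattern to relate them.

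**Figure D3:**
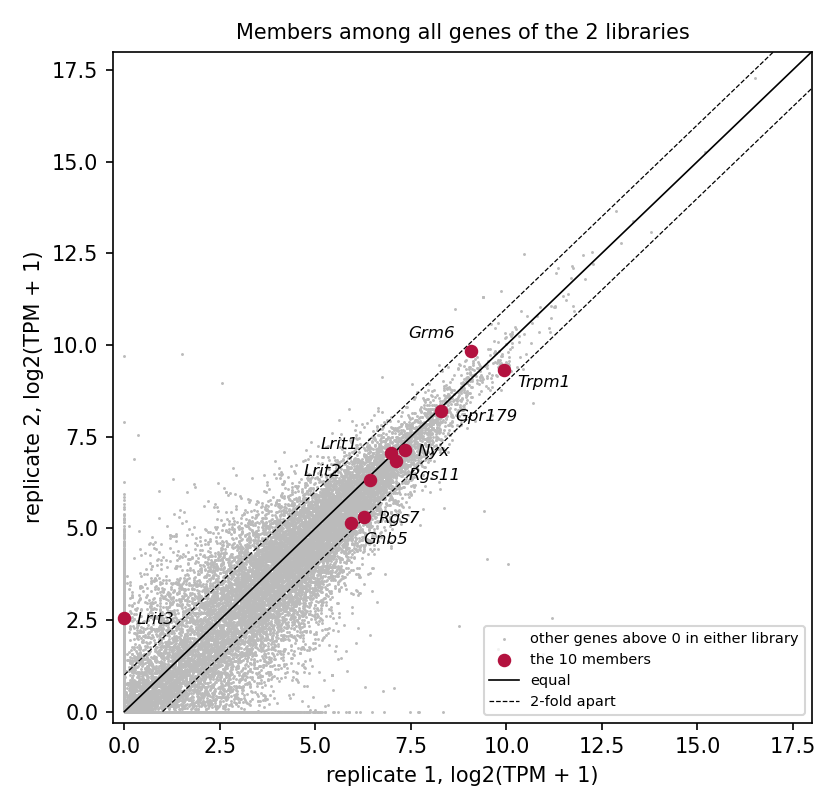
Replicate 2 against replicate 1 for every gene above 0 in either library on log2(TPM + 1) axes, with members in red, a solid line for equal values and dashed lines for 2-fold. The 9 members above 10 TPM lie inside the dashed lines and Lrit3 lies on the left edge, at 0 in replicate 1.

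Among their own families the members were in most cases the dominant genes. Grm6 made up 87.1% of the TPM of the 7 metabotropic glutamate receptor genes compared in replicate 1 and 95.3% in replicate 2. Of the other 6, Grm5, a Gq-coupled receptor, was the 1 called above 1 TPM, at 78.3 and 38.3 TPM. Grm4, Grm7 and Grm8, the closest relatives of Grm6, had 0.15 and 0.05, 1.55 and 3.18, and 0 and 1.3 TPM. Grm2 had 0 and 1.9 TPM and Grm3 had 0 and 0.03 TPM. Trpm1 made up 89.5% and 87.6% of the 8 TRPM genes. Trpm7, a widely expressed channel with a kinase domain, was the 1 relative called, at 108 TPM in replicate 1 and 86.6 TPM in replicate 2. Of the remaining TRPM genes Trpm2 was highest at 5.24 and 2.05 TPM, Trpm3 had 0.26 and 1.63 and Trpm4 1.25 and 0.11 TPM. Trpm8 had 0.1 TPM and 0, and Trpm5 and Trpm6 were listed at 0 in both.

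Rgs7 and Rgs11 together made up 97.8% of the R7 RGS family in replicate 1 and 88.9% in replicate 2. Rgs9, the family member of photoreceptors, had 4.49 and 18.9 TPM and was called above 1 TPM but not above 10 TPM, and Rgs6 had 0.21 TPM and 0. Rgs9 was thus higher in replicate 2, as were 12 of 15 rod markers, 7 of 8 Muller glia markers and 1 of 8 cone markers. With 2 libraries these counts give no pattern to relate them, and the part of photoreceptor RNA in Rgs9 was not tested. Gnb5 was a minor G protein beta gene by share, at 7.72% and 4.64% of the 5 genes. Gnb3, the beta subunit of the ON bipolar Go protein, exceeded it 10.8-fold in replicate 1 and 16.7-fold in replicate 2. Gnb1, the beta subunit of rods and many other cells, had 45.6 and 109 TPM, Gnb2 8.99 and 12.1 TPM, and Gnb4 13.7 and 12.1 TPM. Gpr158, the nearest relative of Gpr179, was listed at 0 and at 0.34 TPM. Of the 20 relatives counted over these lists, 7 were called above 1 TPM and 4 above 10 TPM. The shares among all genes tested were 55.5% and 32.4%.

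**Figure D4:**
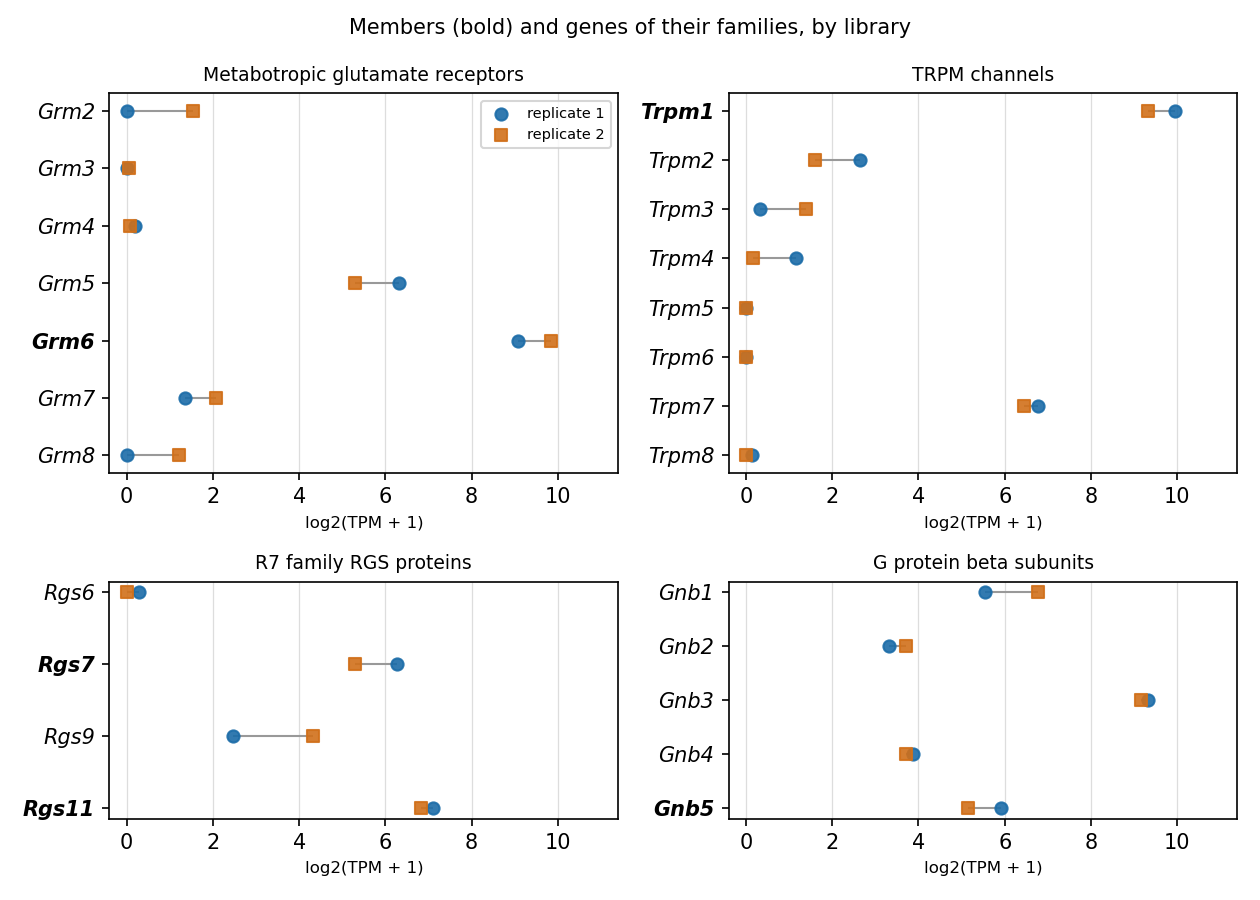
Members (bold) and the genes compared with them from 4 families on the log2(TPM + 1) axis, in replicate 1 (circles) and replicate 2 (squares). Grm6 and Trpm1 lie right of every relative in both libraries, while Gnb5 lies left of Gnb3.

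The other genes of the ON cascade were expressed with the members. Of 6, all 6 were called above 1 TPM and 5 above 10 TPM, against 55.5% and 32.4% of all genes tested. Gnao1, the alpha subunit of Go, had 1494 TPM in replicate 1 and 1754 TPM in replicate 2, and exceeded the RGS pair that acts on it 7.004-fold and 11.6-fold. Gng13, the gamma subunit, had 1096 and 955 TPM, Gnb3 643 and 576 TPM, and Pcp2, a Go-binding protein of ON bipolar cells, 486 and 396 TPM. Of the membrane anchors of R7 RGS proteins, Rgs9bp had 120 TPM in replicate 1 and 61.8 TPM in replicate 2, and Rgs7bp 6.55 and 5.52 TPM. Rgs9bp was above Rgs7bp in both libraries and the ranges do not overlap.

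Partners across the synapse, which belong largely to the photoreceptor terminal, were mixed. Of the 8, 5 were called above 1 TPM and 4 above 10 TPM, against 55.5% and 32.4% of all genes tested. Elfn1, the rod protein that recruits mGluR6, had 3.07 and 1.01 TPM and was not called. Elfn2, its relative, which acts in cones, had 20.3 and 45.1 TPM. Egflam, which encodes pikachurin, a matrix ligand of dystroglycan and GPR179, had 0.3 and 0.38 TPM, while the dystroglycan gene Dag1 had 11.3 and 20.7 TPM. Of the calcium channel genes known from photoreceptor terminals, Cacna1f had 247 and 134 TPM, Cacna2d4 286 and 181 TPM, and Cacnb2 165 and 121 TPM. Cabp4, a calcium-binding partner of that channel in photoreceptors, had 0.94 and 0.16 TPM. Of these partners, Elfn1, Egflam and Cabp4 were not called above 1 TPM. Rod markers summed to 1759 TPM in replicate 1 and 1879 TPM in replicate 2, and cone markers to 189 and 43.7 TPM. The part of photoreceptor RNA in the channel subunit values was not tested.

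**Figure D5:**
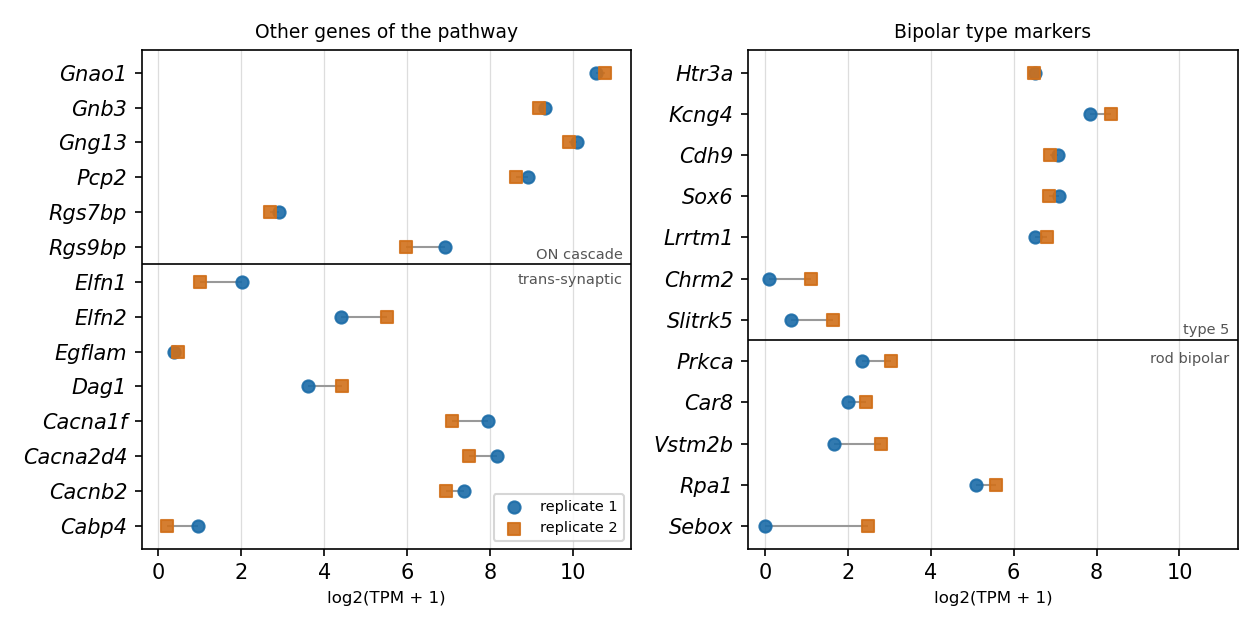
Other genes of the pathway (left) and bipolar type markers (right) on the log2(TPM + 1) axis, in replicate 1 (circles) and replicate 2 (squares). The Go subunits and calcium channel subunits lie right of most other genes, and Egflam, Cabp4 and Elfn1 lie at the left.

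Grouped by human disease, 5 members are genes whose loss causes the complete form of congenital stationary night blindness in people. Of these, 4 were called above 10 TPM, Grm6, Trpm1, Gpr179 and Nyx, against 32.4% of all genes tested. Lrit3 was not called. The sum of the 5 was 2000 TPM in replicate 1 and 1987 TPM in replicate 2. Of 10 genes of photoreceptor forms of night blindness, 7 were called above 1 TPM and 5 above 10 TPM. The shares among all genes tested were 55.5% and 32.4%. The list was led by Sag, the rod arrestin, at 248 TPM in each library, followed by Cacna2d4 and Cacna1f. The lowest were Slc24a1, a rod cation exchanger, at 1.88 and 2.19 TPM, and Cabp4.

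The remaining members share few or no exonic bases with other annotated genes. Gpr179 spans 97332109 to 97352077 on chromosome 11, minus strand. Nyx spans 13466110 to 13489313 on chromosome X, plus strand. Rgs7 spans 175059087 to 175492500 on chromosome 1, minus strand. Rgs11 spans 26202951 to 26211324 on chromosome 17, plus strand, and shares 138 exonic bases with Arhgdig on the other strand, which was listed at 0 and at 0.89 TPM. Gnb5 spans 75306288 to 75345876 on chromosome 9, plus strand, and shares 248 exonic bases with the antisense gene Gm19531, which has no row of that symbol. All 10 members are protein-coding, with 1 annotated transcript for Nyx and Lrit1 and up to 23 for Trpm1.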

How the data were processed

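The authors deposited 1 table of TPM per gene symbol, with a column for each of 2 libraries of total RNA, made with an Ovation RNA-seq V2 kit per the labels' protocols. TopHat2 2.0.10, RSEM 1.2.28 and mm10 are named in the submitters' processing notes, without roles. The sources used here do not give annotation, filters or strand use. The gene in 1 column name is misspelt, and that column was assigned by the number after rep. Values were set to log2(TPM + 1) and tested with limma 3.58.1 in R 4.3.3, with an intercept, a variance trend and Benjamini-Hochberg adjustment over the 19968 genes above 0 in either library, one-sided against 1 and 10 TPM, at a threshold of 0.05. The fit had 19968 total degrees of freedom, so a gene's own spread did not enter, and single p-values are not printed. The script was tested on simulated data. Python 3.11.15 was used for the rest. The members and lists were chosen with earlier results of these data known. Named genes are all members, pathway genes and relatives, type 5 and rod bipolar markers needed to check the label, and up to 3 highest and 2 lowest of other lists; some are not reported here. Otx2, Mir211 and the overlapping genes were named after their values were seen, and the motifs were chosen then too. Both libraries are described as biological replicates, without naming animals.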

Additional observations from a re-analysis of the deposited data

How the results depend on the processing

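Neither pseudocounts of 0.5 and 0.1, a minimum mean of 1 TPM, no variance trend, a robust prior nor rescaling without the mitochondrial genome changed the count of 9 of 10 members above 1 TPM or above 10 TPM, and Lrit3 was not called in any of the 7 fits. With 1 library left out, no test is possible, and 9 to 10 members were at or over 1 TPM and 9 at or over 10 TPM. For all genes the counts with 1 library left out were 14882 to 15514 at 1 TPM and 9294 to 9935 at 10 TPM, against 11089 and 6475 called. The median level of the members was 7.33 after rescaling without the mitochondrial genome, against 6.996, since rescaling raises every other gene, and 6.94 to 7.05 with 1 library left out. The median log2 difference between libraries over 10 members, -0.17 with Lrit3 counted at its listed 0, was 0.03 once centred on genes of at least 10 TPM and -0.04 after rescaling. The mean log2 ratio of Grm6 to Trpm1, -0.18, was -0.88 to 0.52 with 1 library left out, so its sign rests on which library is used. The other 4 ratios kept their sign. The count of members lower in replicate 2 under both rescalings was chosen after seeing the data. No paired analysis was possible because there is 1 group. TPM keeps no depth, so a limit of detection cannot be given.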
